A study of Arabidopsis thaliana with 12 samples.

Results

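In seedling shoots of Arabidopsis thaliana, 168 loci rose strongly when sulfate was removed from wild-type Col-0 and rose much less, or not at all, in the cdk8-1 mutant. They were taken from 32833 loci by their measured levels. A member had a mean of at least 1 TPM (transcripts per 1000000) over the 12 libraries, a rise of at least 2 in mean log2(TPM + 1) from sulfate-supplied to sulfate-free Col-0, and a rise in cdk8-1 of at most 50% of that. It was also at least 1.5 lower in sulfate-free cdk8-1 than in sulfate-free Col-0, with no overlap between the 3 and 3 values. Of 19127 loci that reached 1 TPM, 2100 rose by at least 2 in Col-0, 263 of these met the limit on the rise in cdk8-1, 174 of these met the limit on the difference, 173 had no overlap, and 168 remained once 9 loci had been left out by name, of which 5 met every threshold. Since levels in all 4 groups chose the members, their changes are given as a description, and limma's calls on them are not read as support.

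The libraries held total RNA from shoots cut from 10-day-old seedlings, grown on washed agar with half-strength Murashige and Skoog medium. Sulfate-supplied plates held 1.5 mM magnesium sulfate and sulfate-free plates 0 mM, with magnesium chloride in its place. Each combination of genotype (Col-0, the wild type, and cdk8-1, a mutant of CDK8) and sulfate supply had 3 libraries. No other mutant allele of CDK8 was represented. Whether the replicates were grown separately is not in the labels, and the p-values cover only the spread among these libraries, which may be technical.

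CDK8 is the kinase of the Mediator kinase module, a detachable part of the complex that links transcription factors to RNA polymerase II; depending on the gene, the module holds transcription back or promotes it. Sulfur is needed for cysteine, methionine, glutathione and the sulfur-containing defence compounds of the cabbage order. Plants short of sulfate induce sulfate uptake and, when the shortage persists, stress, defence and senescence genes.

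CDK8 (AT5G63610) was at 21.0, 23.1 and 24.4 TPM in sulfate-supplied Col-0 and at 33.3, 33.6 and 32.7 TPM in sulfate-free Col-0. In cdk8-1 it was at 2.96, 4.01 and 4.99 TPM with sulfate and at 5.19, 5.20 and 6.09 TPM without. All 6 mutant libraries lay below all 6 wild-type libraries, in the direction of their labels. Reads in annotated loci numbered 17441215 to 25175871 per library. The 6 shoot markers summed to 72791 to 75580 TPM in sulfate-supplied Col-0, 71499 to 74346 TPM in sulfate-supplied cdk8-1, 4394 to 4589 TPM in sulfate-free Col-0 and 11001 to 14234 TPM in sulfate-free cdk8-1. The 6 root markers summed to at most 10.9 TPM in any library, and 5 of the 6 reached 1 TPM in library 1 of sulfate-free cdk8-1, against at most 2 in any other library. The 6 seed markers reached 211 TPM in 1 of the 3 sulfate-supplied cdk8-1 libraries. In bulk shoots, fewer cells of a type and less RNA per cell cannot be told apart, and the part of these marker shifts in the results was not tested.

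Promoter windows were read for the members, because loci that move together can be set side by side at the sequence level. The windows cover the 250 bases before each annotated gene start in RefSeq's TAIR10.1 assembly, written 5′ to 3′ on the gene's own strand. The first 5 hold at least 2 matches to ACGTG, the core of the abscisic acid response element, on either strand; capitals mark the matches. In the CSLG2 window, both matches overlap in 1 palindromic CACGTG, the G-box.
5PTASE11, chr1:17438491-17438740, minus strand: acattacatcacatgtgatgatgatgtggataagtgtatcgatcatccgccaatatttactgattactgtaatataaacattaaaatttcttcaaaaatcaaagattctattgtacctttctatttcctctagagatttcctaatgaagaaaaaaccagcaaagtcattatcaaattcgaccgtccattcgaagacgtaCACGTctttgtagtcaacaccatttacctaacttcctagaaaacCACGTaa
CSLG2, chr4:12461657-12461906, plus strand: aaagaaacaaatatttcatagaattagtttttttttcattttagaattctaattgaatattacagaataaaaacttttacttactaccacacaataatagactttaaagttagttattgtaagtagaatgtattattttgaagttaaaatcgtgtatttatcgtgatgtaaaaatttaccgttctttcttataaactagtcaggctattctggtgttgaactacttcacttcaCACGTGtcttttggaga
MAPKKK19, chr5:26772394-26772643, plus strand: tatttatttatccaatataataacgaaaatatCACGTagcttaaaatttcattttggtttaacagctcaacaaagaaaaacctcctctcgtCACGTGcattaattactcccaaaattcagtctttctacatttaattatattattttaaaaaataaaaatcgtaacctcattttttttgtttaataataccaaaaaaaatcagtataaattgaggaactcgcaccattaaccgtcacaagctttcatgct
RAP2.6, chr1:16263555-16263804, plus strand: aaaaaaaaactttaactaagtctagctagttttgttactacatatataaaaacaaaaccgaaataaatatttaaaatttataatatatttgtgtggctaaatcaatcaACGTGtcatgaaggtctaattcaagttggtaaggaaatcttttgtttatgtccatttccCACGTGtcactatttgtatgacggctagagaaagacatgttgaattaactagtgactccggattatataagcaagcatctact
AT3G07255, chr3:2308457-2308706, minus strand: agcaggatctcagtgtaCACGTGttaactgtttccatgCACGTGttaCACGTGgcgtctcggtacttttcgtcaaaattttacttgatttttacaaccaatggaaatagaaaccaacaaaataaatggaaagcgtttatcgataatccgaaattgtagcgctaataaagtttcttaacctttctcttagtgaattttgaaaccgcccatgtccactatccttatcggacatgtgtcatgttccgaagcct
The next window holds GCCGCC, the GCC-box bound by ethylene response factors, on the other strand, so that its capitals read as the reverse complement.
NHL10, chr2:15110242-15110491, plus strand: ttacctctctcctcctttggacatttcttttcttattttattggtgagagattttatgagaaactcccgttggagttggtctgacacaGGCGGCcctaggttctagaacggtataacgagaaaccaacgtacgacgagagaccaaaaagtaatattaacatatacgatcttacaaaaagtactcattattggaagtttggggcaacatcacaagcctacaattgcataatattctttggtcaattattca
The last pair belongs to small heat shock proteins, with GAANNTTC, the core of the heat shock element, in capitals.
AT1G52560, chr1:19575867-19576116, minus strand: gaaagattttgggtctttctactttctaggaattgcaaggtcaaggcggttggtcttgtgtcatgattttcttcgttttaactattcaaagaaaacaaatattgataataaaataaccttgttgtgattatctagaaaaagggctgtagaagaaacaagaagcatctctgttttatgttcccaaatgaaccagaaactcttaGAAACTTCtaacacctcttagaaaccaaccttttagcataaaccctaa
HSP17.4, chr3:16984868-16985117, minus strand: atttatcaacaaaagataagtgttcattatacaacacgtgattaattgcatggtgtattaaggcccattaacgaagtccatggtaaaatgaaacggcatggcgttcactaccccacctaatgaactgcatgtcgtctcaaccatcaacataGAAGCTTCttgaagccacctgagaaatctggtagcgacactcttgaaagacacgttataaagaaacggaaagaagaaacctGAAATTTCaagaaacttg
None of these 8 windows overlaps an annotated exon, which held for 145 of the 168 members.

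Most members were low with sulfate, at a mean below 1 TPM for 119 of 168 in Col-0, though UGT85A1, CYP79B2 and AT5G39580 reached means of 29.1, 33.4 and 26.5 TPM there. The members' median level was 0.294 TPM in sulfate-supplied Col-0, 13.6 TPM in sulfate-free Col-0, 0.240 TPM in sulfate-supplied cdk8-1 and 1.79 TPM in sulfate-free cdk8-1. Together they made up 0.0390%, 0.509%, 0.0338% and 0.0867% of all TPM in those 4 groups. The median rise on the log2(TPM + 1) scale was 3.12 in Col-0 and 0.95 in cdk8-1. Taken locus by locus, the median share of the Col-0 rise kept in cdk8-1 was 31.0%. It was 82.0% for the 1927 other loci that rose by at least 2 in Col-0. Without sulfate the members were lower in cdk8-1 by a median difference of -2.29, with a range from -4.18 to -1.51, while the other risers had a median of -0.44 and all 19127 loci a median of 0.08. All loci shifted by a median of 0.46 in Col-0 and 0.45 in cdk8-1 on removal of sulfate, a shift that scaling by the median of ratios brought to 0.05 and 0.03. A response was reduced, and for most members not lost: 164 of 168 still had a rise above 0 in cdk8-1, 78 rose by at least 1 there and 6 by at least 2.

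**Figure D1:**
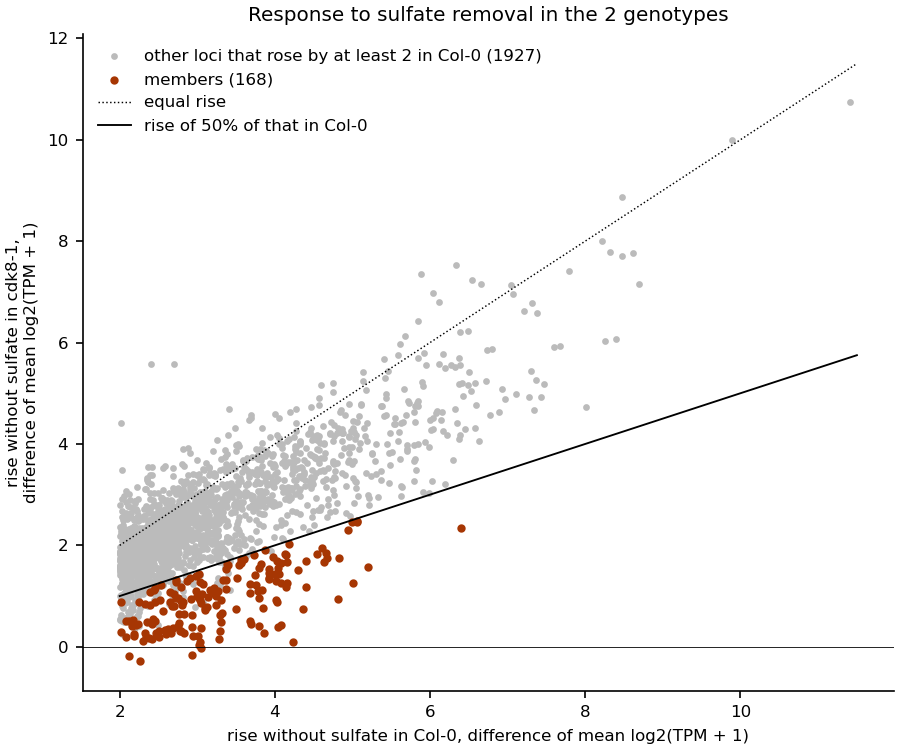
Rise without sulfate in cdk8-1 (vertical axis) against that in Col-0 (horizontal axis), both as differences of mean log2(TPM + 1) over 3 libraries; each point is 1 locus. The 168 members lie below the line for 50% of the Col-0 rise by construction, and all but 4 lie above 0 on the vertical axis.

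The scale bears on the size of these responses. Below 1 TPM, adding 1 before taking logs compresses a rise. On whole reads recovered from the TPM values of 167 members, with the smaller constant that voom adds to each count, the median log2 rise was 5.33 in Col-0 and 2.33 in cdk8-1. On that scale 100 of the 167 had a rise in cdk8-1 of at most 50% of that in Col-0. These rises still rest on the constant for the 26 members with 0 reads in all sulfate-supplied Col-0 libraries and the 27 with 0 in all sulfate-supplied cdk8-1 libraries. With a pseudocount of 0.1 TPM the thresholds chose 132 loci, 109 of them members. With a pseudocount of 5 TPM the same thresholds chose 81 loci, 58 of them members, and with a minimum of 5 TPM they chose 75, all of them members.

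With sulfate, most members were too low for this scale to show a difference between the genotypes: 119 had a mean below 1 TPM in Col-0 and 122 in cdk8-1. The median difference was -0.02, and 14 were lower and 4 higher in cdk8-1 by at least 0.5. limma gave 9 an adjusted p under 0.05 for a lower level (over all loci, 4.84% were called lower) and 2 for a higher one (8.85%). The 9 were 5PTASE11, AT4G37290, AT1G68620, MAPKKK19, BGLU45, GH3.3, B120, HAI1 and SKS9, and the 2 were DIN9 and AT1G06087. The rule used the difference without sulfate and the interaction, so limma's calls of both were largely fixed in advance for members and are not given. Over all loci, 15% were called lower without sulfate and 12.2% had an interaction called lower. No overlap of the lower cdk8-1 values, which the rule demanded, held for 22.2% of all loci. Even so, voom on the recovered reads called the interaction lower for only 94 of 167 members, and for 1800 loci in all.

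Library 3 of sulfate-free Col-0 stood out among its replicates. It held the highest of the 3 values for 121 of the 168 members (72.0%), against 31.3% of all loci. It was also the deepest, with 25175871 reads in annotated loci, against 20216213 in library 1 and 19469809 in library 2 of that group. The part of depth was not tested. Library 1 of that group held the highest for 9 (5.36%), against 38.5% of all loci. In sulfate-free cdk8-1, library 3 held the highest value for 84 members (50%), against 31.4% of all loci. Among sulfate-supplied cdk8-1 libraries, replicate 1, the one with the seed transcripts, held the highest value for 104 members (61.9%), against 44.2% of all loci. Without library 3 of sulfate-free Col-0 the thresholds chose 160 loci, 156 of them members. Without library 1 of sulfate-supplied cdk8-1 they chose 163 loci, 160 of them members. Without library 3 of sulfate-free cdk8-1 they chose 180 loci, 163 of them members. The part of these libraries in the result was not tested further. All thresholds, the mean of 1 TPM included, were also applied to 2 replicate numbers alone, and the number left out was then read. In the unused libraries, 144 of 186, 147 of 165 and 145 of 162 chosen loci were at least 1.5 lower in cdk8-1 without sulfate. Of all loci, 1.85%, 2.31% and 2.20% were. Replicates may be technical, and the same contrast chose the loci, so these counts describe spread among libraries and do not test the group.

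**Figure D2:**
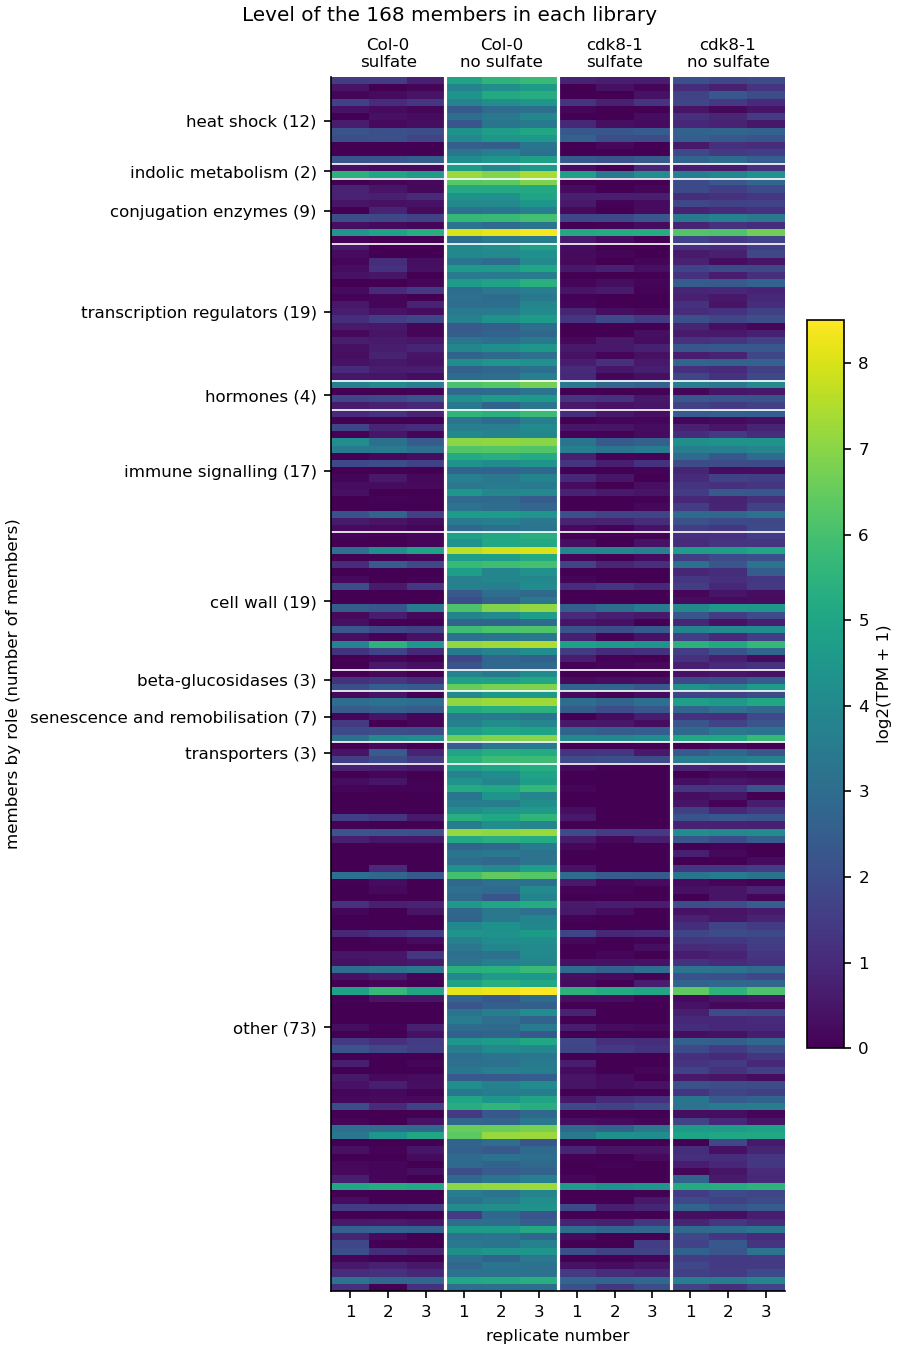
Level of each of the 168 members (rows, grouped by role) in each of the 12 libraries (columns), as log2(TPM + 1) on the colour scale. The Col-0 libraries without sulfate are brightest throughout, and library 3 of that group is the brightest of its 3 for 121 members.

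The largest differences without sulfate included phosphatase, lipase-like, wall and conjugation enzymes. 5PTASE11 (AT1G47510), an inositol polyphosphate 5-phosphatase, was at 0.699, 0.559 and 0.432 TPM in sulfate-supplied Col-0 and at 26.1, 30.6 and 37.3 TPM without sulfate. In cdk8-1 it was at 0.144, 0.0412 and 0 TPM with sulfate and at 0.798, 0.585 and 0.948 TPM without. The difference without sulfate was -4.18, and the highest mutant library lay far below the lowest wild-type one.

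AT2G15780, which encodes a cupredoxin-fold protein, was at 12.7, 16.7 and 28.9 TPM in sulfate-free Col-0 and at 0, 0.143 and 0.0854 TPM in sulfate-free cdk8-1, which were 810 and 3 reads in all. DALL1 (AT4G16820), a lipase-like protein, was at 18.8, 13.9 and 25.8 TPM and at 0.251, 0.412 and 0.296 TPM in the same order. AT1G76470, of the NAD(P)-binding Rossmann-fold superfamily, was at 35.7, 32.8 and 49.6 TPM against 1.56, 1.44 and 3.72 TPM. These 3 loci were near 0 with sulfate in both genotypes, so that nearly all of their signal came from the sulfate-free Col-0 libraries. Also among the 20 largest differences were AT4G02160, AT5G54820, AT3G56500 and AT4G02650, with values of -3.58, -3.38, -3.12 and -3.11.

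**Figure D3:**
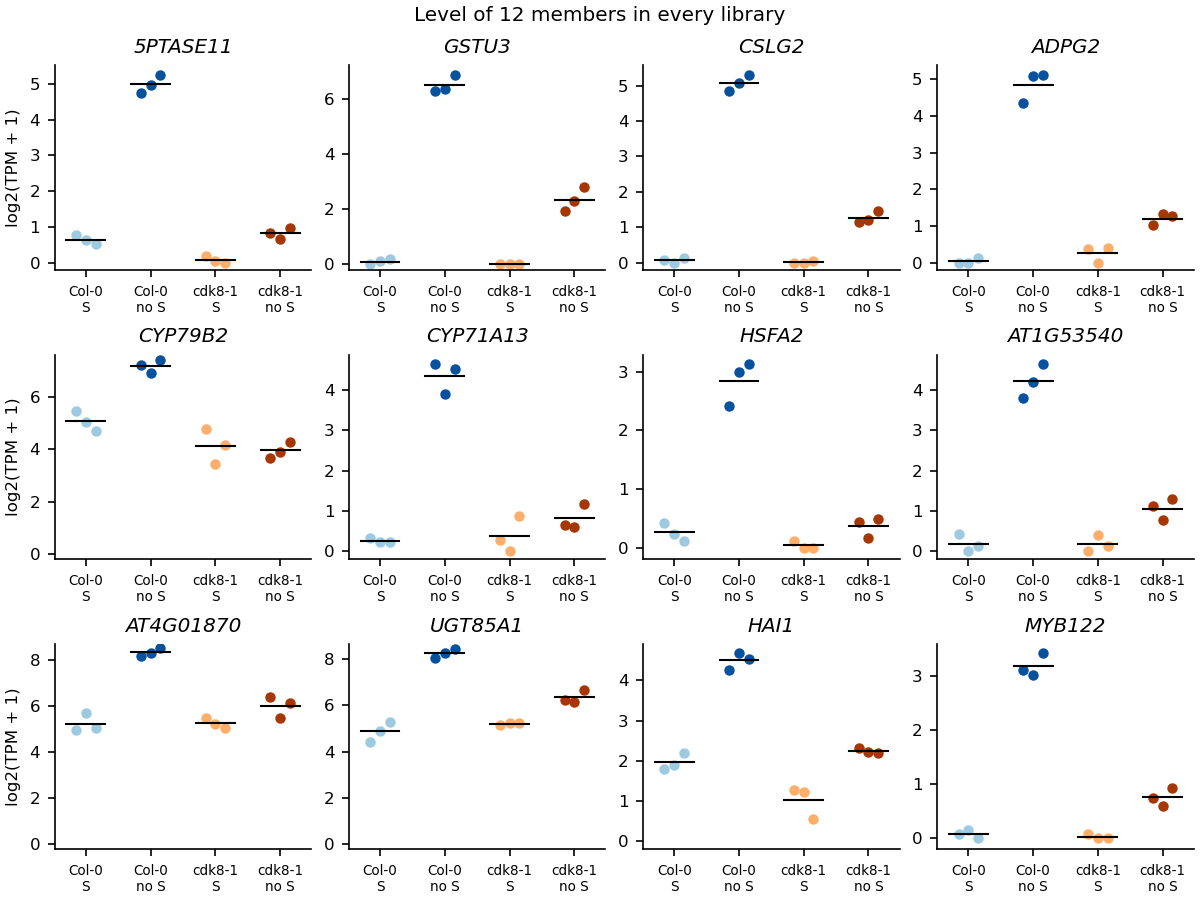
Level of 12 members in every library, as log2(TPM + 1); points are libraries and bars are means of 3, with S and no S for plates with and without sulfate. For each of the 12, the 3 sulfate-free cdk8-1 libraries lie below the 3 sulfate-free Col-0 libraries, and only CYP79B2 has a lower mean without than with sulfate in cdk8-1.

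Conjugation enzymes, which attach glutathione or sugar to reactive or toxic compounds, made up 9 members. Roles were given to members only, so the counts by role here and below have no share of all loci beside them. GSTU3 (AT2G29470), a tau class glutathione transferase, was at 77.7, 80.6 and 116 TPM in sulfate-free Col-0 and at 2.78, 3.97 and 5.90 TPM in sulfate-free cdk8-1. With sulfate it did not exceed 0.154 TPM in any library. GSTU12 (AT1G69920) had a difference of -2.38 without sulfate.

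Among the glycosyltransferases, UGT73C1 (AT2G36750) was at 33.9, 33.9 and 34.0 TPM in sulfate-free Col-0 against 2.73, 2.01 and 2.79 TPM in sulfate-free cdk8-1. UGT73C7 (AT3G53160) was at 19.1, 18.9 and 30.1 TPM against 1.17, 1.29 and 1.55 TPM. UGT85A1 (AT1G22400), a glucosyltransferase of cytokinins, was among the most abundant members, at 262, 302 and 344 TPM against 74.5, 70.5 and 99.2 TPM, and kept a rise of 1.14 in cdk8-1. AT2G36770 was at 54.4 TPM on average against 10.5 TPM, while AT2G36780, 90.4% identical to it over 89.2% of its exons, was at 22.6 TPM against 22.7 TPM.

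Both members of indolic metabolism make indole-3-acetaldoxime or use it. CYP79B2 (AT4G39950) converts tryptophan to this precursor of camalexin, indolic glucosinolates and auxin. It was at 43.1, 31.9 and 25.1 TPM in sulfate-supplied Col-0 and at 149, 121 and 170 TPM without sulfate, but at 26.8, 9.86 and 17.2 TPM and at 11.9, 14.0 and 18.7 TPM in cdk8-1. The mutant values with and without sulfate overlapped, with a mean difference of -0.18. CYP71A13 (AT2G30770), which acts next on the way to camalexin, was at 23.9, 13.8 and 22.0 TPM in sulfate-free Col-0 and at 0.579, 0.528 and 1.26 TPM in sulfate-free cdk8-1. It is 90.4% identical to CYP71A12, which averaged 1194 TPM and 447 TPM in those groups, so its level is uncertain. Also, 22.1% of its exon length overlaps exons of the other strand, which adds to this where reads were counted without regard to strand. MYB122 (AT1G74080), a regulator of indolic glucosinolate genes, was at 7.60, 7.08 and 9.64 TPM against 0.677, 0.505 and 0.907 TPM.

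Heat shock genes made up 12 members, although no library had a heat treatment in its labels. HSFA2 (AT2G26150), a heat shock transcription factor that sustains the response, was at 4.35, 6.92 and 7.76 TPM in sulfate-free Col-0 and at 0.359, 0.126 and 0.403 TPM in sulfate-free cdk8-1. HSP101 (AT1G74310), a chaperone that dissolves protein aggregates, was at 19.4, 25.9 and 31.5 TPM against 5.35, 5.87 and 5.34 TPM. HSP17.6A (AT5G12030), a small heat shock protein, was at 19.3, 34.9 and 38.6 TPM against 2.18, 3.93 and 2.89 TPM. In all 3, Col-0 library 1 was the lowest of its group and still above every mutant library.

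The adjacent gene HSP17.6II (AT5G12020) was at 7.34, 9.30 and 14.7 TPM against 1.201, 0.895 and 1.82 TPM. AT1G07400 and AT1G53540, of the same HSP20-like family, had differences of -3.45 and -3.16. Of 31 HSP20-like loci measured, 9 rose by at least 2 in Col-0. Members were 8 of those 9, against 168 of 2100 over all loci. Of the 23 HSP20-like loci that are not members, 2 were lower by at least 1 in sulfate-free cdk8-1 and 0 were higher by as much. This family and the others counted were all picked after the members had been seen. In the other families, members were 6 of 22 UDP-glycosyltransferases that rose by at least 2, 6 of 13 such AP2/ERF loci and 4 of 12 such TIR disease resistance loci. They were also 5 of 15 such peroxidases and 3 of 7 such pectin methylesterase inhibitors. Outside the members, the others had 14 lower and 2 higher of 78 UDP-glycosyltransferases, 8 and 3 of 44 AP2/ERF loci, 5 and 0 of 72 TIR disease resistance loci, 5 and 9 of 39 peroxidases, and 3 and 4 of 32 pectin methylesterase inhibitors. Over all 18959 loci outside the members, 3.38% were lower and 5.49% higher by at least 1.

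Cell wall genes made up 19 members. XTH23 (AT4G25810), which cuts and rejoins xyloglucan, was at 201, 248 and 261 TPM in sulfate-free Col-0 and at 25.9, 26.0 and 31.2 TPM in sulfate-free cdk8-1. The polygalacturonases ADPG2 (AT2G41850) and ADPG1 (AT3G57510), which loosen walls where organs or pods separate, had differences of -3.66 and -2.79. CSLG2 (AT4G24000), a cellulose synthase-like protein, was at 27.7, 32.6 and 38.6 TPM against 1.203, 1.31 and 1.77 TPM. The peroxidase gene AT5G39580 was at 139, 156 and 179 TPM against 43.0, 35.3 and 50.2 TPM. The adjacent peroxidase genes PRX37 and AT4G08780, 93.5% identical, averaged 57.9 and 5.41 TPM against 6.90 and 1.01 TPM.

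Immune signalling accounted for 17 members. FMO1 (AT1G19250), which makes the systemic immune signal N-hydroxypipecolic acid, was at 36.1, 39.1 and 35.7 TPM in sulfate-free Col-0 and at 6.78, 4.04 and 6.90 TPM in sulfate-free cdk8-1. It kept a rise of 2.46 in the mutant. NHL10 (AT2G35980), a membrane protein induced by pathogens, was at 46.6, 41.4 and 55.0 TPM against 4.41, 4.82 and 4.77 TPM. PROPEP2 and PROPEP3, precursors of danger peptides that lie near one another on chromosome 5, had differences of -2.20 and -2.06. The disease resistance gene AT1G66090 averaged 130 TPM against 19.1 TPM, and MAPKKK19 12.8 TPM against 0.660 TPM.

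Transcription regulators made up 19 members and hormone genes 4. RAP2.6 (AT1G43160), an ethylene response factor, was at 8.91, 6.96 and 15.3 TPM in sulfate-free Col-0 and at 0.736, 0.226 and 0.361 TPM in sulfate-free cdk8-1. HAI1 (AT5G59220), a protein phosphatase that damps abscisic acid signalling, was at 18.2, 24.9 and 22.1 TPM against 3.97, 3.63 and 3.53 TPM. NCED2 (AT4G18350), which cleaves carotenoids for abscisic acid synthesis, averaged 7.43 TPM against 0.317 TPM. GH3.3 (AT2G23170), which conjugates auxin to amino acids, averaged 82.0 TPM against 11.9 TPM. HAI1 and GH3.3 were already lower with sulfate, by 0.95 and 0.83 on the log2 scale.

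Senescence and remobilisation genes made up 7 members, beta-glucosidases 3 and transporters 3. PES1 (AT1G54570), which esterifies phytol freed from chlorophyll, was at 140, 153 and 157 TPM in sulfate-free Col-0 and at 26.6, 23.0 and 32.3 TPM in sulfate-free cdk8-1. BFN1 (AT1G11190), a nuclease of senescing tissue, was at 35.6, 39.5 and 43.1 TPM against 5.81, 8.17 and 6.00 TPM. HAK5 (AT4G13420), a high-affinity potassium transporter, was at 30.6, 37.7 and 36.4 TPM against 4.29, 6.36 and 3.86 TPM. BGLU27 (AT3G60120) had a difference of -3.31. The most abundant member, AT4G01870, annotated as a tolB protein-like protein, was at 290, 311 and 362 TPM against 84.3, 43.8 and 69.8 TPM. The other 73 members were given no role, and 13 of the 168 have a product annotated as uncharacterized.

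In 4 members the mean did not rise in cdk8-1. Beside CYP79B2 these were PUM9 (AT1G35730), a Pumilio-type RNA-binding protein, AT3G07255 and the non-coding AT1G06087, with changes of -0.16, -0.03 and -0.28. PUM9 was at 6.24, 7.81 and 7.74 TPM in sulfate-free Col-0 and at 0.191, 0.117 and 0.0468 TPM in sulfate-free cdk8-1. AT3G07255 was at 5.60, 6.35 and 10.5 TPM against 0, 0.0647 and 0 TPM. Adjacent pairs of members were few: apart from the pairs named above they were AT1G68620 with AT1G68630 and AT5G40000 with AATP1.

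Loci near the thresholds show how sharp the group's edge is. ASL9 and AT1G68620 lay just inside the limit on the response ratio, at 0.495 and 0.494, and AT4G03450 lay just outside at 0.502; 132 loci failed that limit alone. The difference of AT3G04220 was -1.51 and that of AT1G10220, outside, -1.498. Of the 9 loci left out by name, ABCG40, TH8, SWEET15, JOX4 and JOX3 met every threshold, with differences of -5.88, -4.47, -2.97, -3.81 and -2.76. AT1G26390, AT1G26380, NAC019 and NAC055 kept 73.0%, 51.5%, 59.5% and 53.3% of their Col-0 rise.

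Single-exon genes were common among the members. A single exon was annotated for 62 (36.9%), against 22.8% of the other risers and 14.8% of all loci. The median exonic length was 1336 bases, against 1554 and 1754 bases. At least 10% of the exon length overlapped exons of the other strand in 14 of the 168 members. The same held for 160 of the 1927 other risers and 2064 of all 19127 loci. Such overlap makes levels uncertain where reads were counted without regard to strand.

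In the promoter windows, 15 motifs were searched on both strands, all picked after the members' values had been seen. ACGTG stood in 38.7% of the members' windows, 27.2% of those of the other risers and 23.3% of all. GCCGCC stood in 5.95%, 2.13% and 2.07%, and CACG, the core bound by NAC factors and contained in ACGTG on 1 strand, in 64.3%, 52.0% and 46.3%. GAANNTTC stood in 17.3%, 13.3% and 9.47%, and in 4 of the 12 heat shock members, and its longer 3-unit form in 2.38%, 0.675% and 0.397%. Between the members and the other risers, the G-box (CACGTG, which holds ACGTG) stood in 10.1% and 6.49%, ACCAAC in 14.9% and 10.9%, ATGTAT in 29.2% and 24.1%, TATAAA in 54.8% and 49.5%, and CCGAC in 9.52% and 12.5%. Of the remaining motifs, TTGAC, contained in the W-box, stood in 56.5% and 54.0%, the mitochondrial dysfunction motif in 2.98% and 3.53%, the W-box (TTGACC or TTGACT) in 36.9% and 35.9%, the as-1 core (TGACG) in 22.0% and 23.6%, and the sulfur-responsive core GAGAC in 23.2% and 25.7%. The median GC content of the windows was 30.8%, 30.8% and 31.6% in the 3 sets. A match describes the letters and is not a shown binding site.

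**Figure D4:**
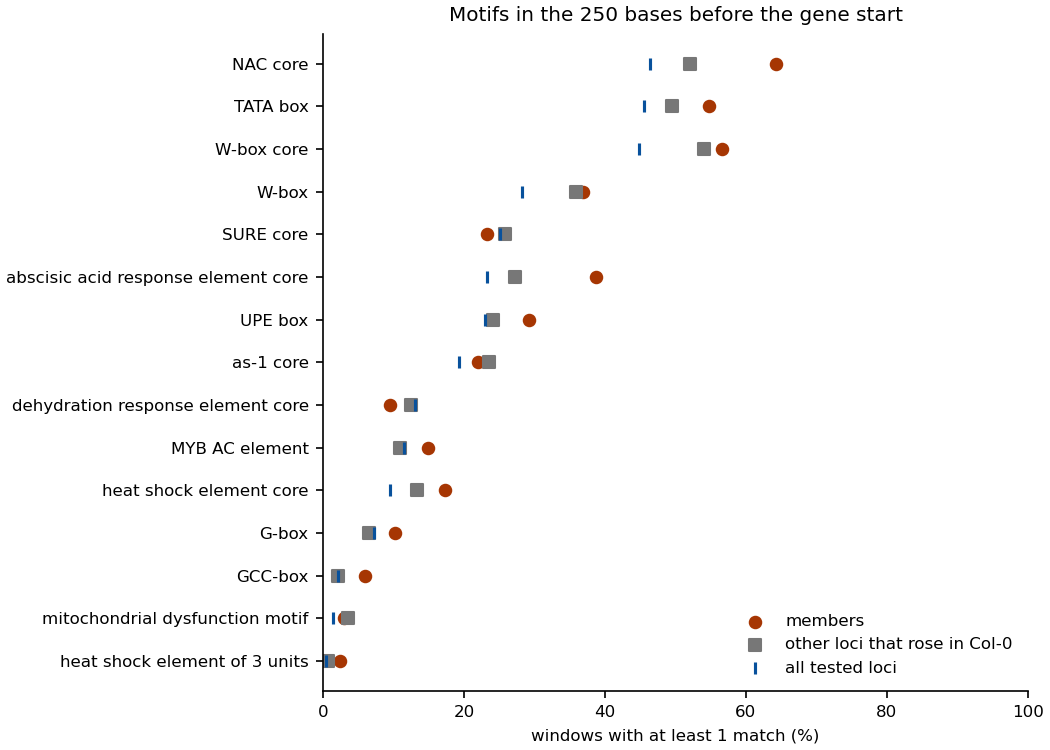
Share of 250-base windows with at least 1 match (horizontal axis, %) for each of 15 motifs (vertical axis) in the 168 members, the other 1927 loci that rose by at least 2 in Col-0 and all tested loci. The members lie to the right of the other risers at ACGTG, with 38.7% against 27.2%, and next to them at the W-box, with 36.9% against 35.9%.

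Related genes that are not members were read from 20 lists, with limma's adjusted p over all 19127 loci; here 2872 loci (15%) were called lower and 5028 (26.3%) higher in cdk8-1 without sulfate. With median-of-ratios scaling that split was 3640 lower and 3996 higher. Of 11 glycosyltransferases of stress responses, 10 were lower and 0 higher, with a median of -1.22. Of 7 camalexin and indolic phytoalexin genes, 6 were lower and 0 higher, of 14 senescence genes 11 and 0, and of 17 NAC factors 13 and 0. Of 16 jasmonate breakdown and JAZ genes, 9 were lower and 0 higher, of 13 mitochondrial retrograde genes 8 and 1, and of 22 tau class glutathione transferases 10 and 2. With sulfate, 6 of the NAC factors were already lower and 2 higher, and 6 and 0 of the jasmonate breakdown and JAZ genes. An interaction was called lower for 4 NAC factors and higher for 0, and for 3 and 1 of the jasmonate breakdown and JAZ genes. For the other lists, in order, the counts were 10 and 0, 3 and 0, 8 and 0, 7 and 1, and 9 and 2.

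The listed loci with the smallest adjusted p had lower levels in the mutant in most of these groups. AOX1D, an alternative oxidase, averaged 202 ± 14.8 TPM (SD, n = 3) in sulfate-free Col-0 and 38.5 ± 4.58 TPM in sulfate-free cdk8-1, a difference of -2.36 ± 0.12 (SE, limma adjusted p = 4.02e-08). AOX1A averaged 625 ± 3.61 TPM against 238 ± 9.40 TPM, a difference of -1.39. PAD3, the last enzyme of camalexin synthesis, averaged 237 ± 25.7 TPM against 52.8 ± 15.6 TPM, a difference of -2.18 (limma adjusted p = 1.05e-05). GSTU1 averaged 130 ± 18.9 TPM against 21.5 ± 5.34 TPM. VNI2, a NAC factor, averaged 374 ± 25.2 TPM against 198 ± 2.80 TPM, and its interaction did not pass (limma adjusted p = 0.245).

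Most markers of sulfur limitation had no called difference between the genotypes. Of 17, 4 were lower and 1 higher in sulfate-free cdk8-1, with a median of -0.09. BGLU30 averaged 3229 ± 189 TPM in sulfate-free Col-0 and 2270 ± 43.1 TPM in sulfate-free cdk8-1, a difference of -0.51. The root sulfate transporter gene SULTR1;1 averaged 24.7 ± 5.72 TPM against 11.7 ± 2.34 TPM, and SULTR4;2, which releases sulfate from the vacuole, 101 ± 10.1 TPM against 138 ± 0.521 TPM. Of 14 jasmonate synthesis genes, 5 were lower and 2 higher, and of 20 genes of abscisic acid synthesis, breakdown and response 6 were lower and 3 higher. With sulfate, 8 of the jasmonate synthesis genes were lower and 0 higher, and 8 and 1 of the abscisic acid genes. An interaction was called higher for 4 and lower for 1 of the jasmonate synthesis genes, and for 5 and 4 of the abscisic acid genes. Without sulfate, the remaining lists gave 5 lower and 0 higher of 15 salicylate genes, 7 and 5 of 16 berberine bridge enzyme-like genes and 3 and 3 of 10 jasmonate response genes. They also gave 3 and 1 of 10 ABCG transporters, 2 and 3 of 9 SWEET genes and 1 and 0 of 7 thioredoxins h. In the Mediator kinase module 1 of 5 genes was lower, CDK8 itself, and 1 higher; all 6 shoot markers and the 1 root marker tested were higher, and 0 of 5 seed markers passed in either direction (limma, adjusted p). With median-of-ratios scaling neither the higher module gene nor the root marker passed.

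**Figure D5:**
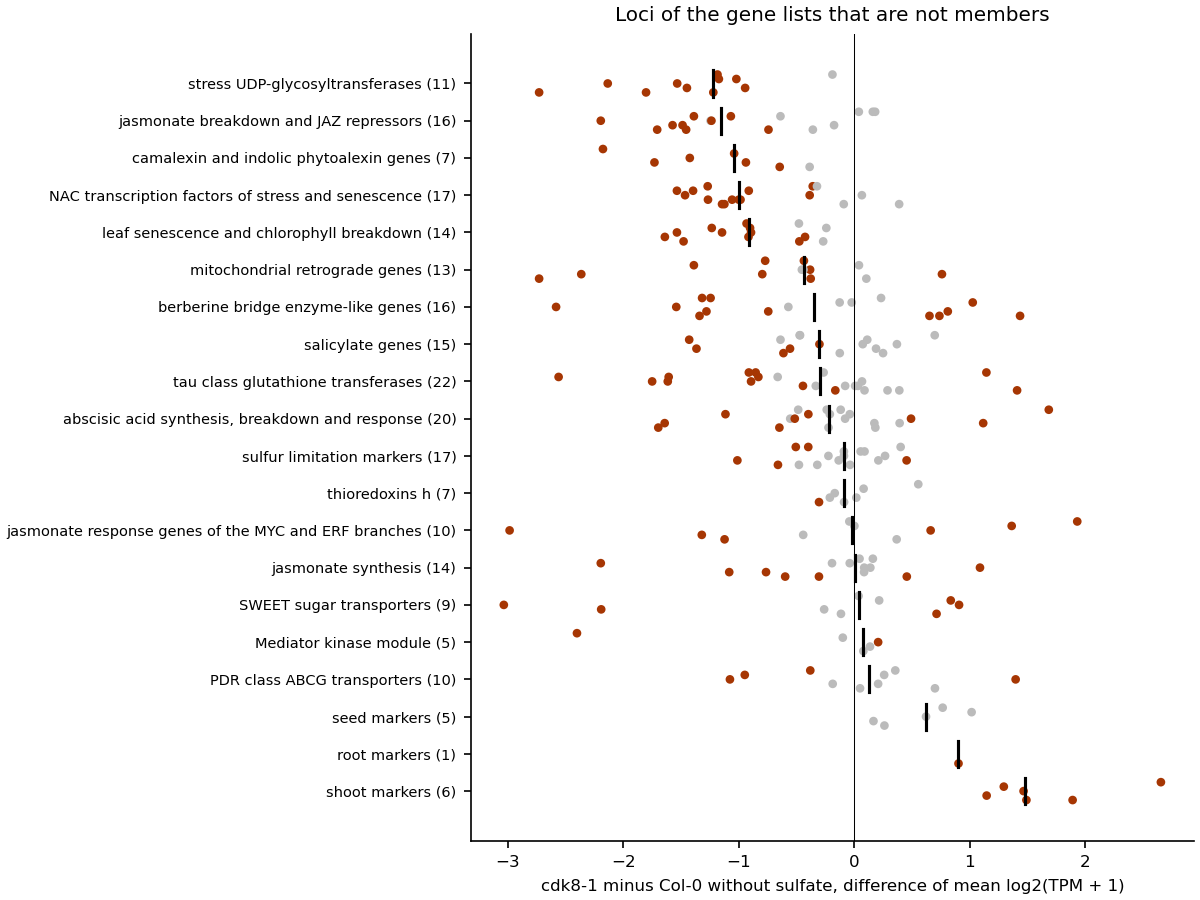
Difference between cdk8-1 and Col-0 without sulfate in mean log2(TPM + 1) for the loci of 20 lists that are not members; each point is 1 locus, brown where limma's adjusted p is under 0.05 and grey otherwise, and black bars are medians. The stress glycosyltransferases have a median of -1.22 and the 17 sulfur limitation markers one of -0.09.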

How the data were processed

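Total RNA of Arabidopsis shoots was sequenced in 12 libraries. The authors deposited TPM values for 32833 loci, per the file headers; the submitters' processing notes list the tools STAR (2.7.11b), featureCounts (2.0.8) and, without saying for what, DESeq2 (1.46). The directional library kit keeps the strand, per the labels' protocols. The genome build is not given in the sources used here. Whole reads within 0.01 read were recovered from over 99% of TPM values above 0 with exonic lengths of RefSeq's TAIR10.1 annotation, so its loci were used for promoters. Such reads cover counting error only.

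limma 3.58.1 in R 4.3.3 was fitted to log2(TPM + 1) of 19127 loci with 4 group means, a trended prior and Benjamini-Hochberg adjustment at 0.05. The model was tested on simulated data. Near-identical copies were found with blastn at 90% identity over at least 50% of the exonic length.

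The members and lists were chosen with earlier results of these data known. Beside CDK8 and the left-out loci, which are not members, the members named are the 20 with the largest difference, the 5 highest, those in a list, those without a rise in cdk8-1, adjacent ones and those nearest a threshold; others were picked for their role after their values were seen, as were roles, families and motifs. From the lists, up to 3 loci each with the smallest adjusted p could be named. Alternatives were another scaling, pseudocounts, filters, a replicate block and leaving out libraries, and, chosen after seeing the data, voom on recovered reads.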

Additional observations from a re-analysis of the deposited data

Results flagged for a closer look

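Of 232 listed loci tested that are not members, 95 had a response to sulfate removal that differed between the genotypes. The test was limma's interaction at an adjusted p under 0.05, with 66 responses smaller or more negative in cdk8-1 and 29 the other way. Over all 19127 loci, 5171 were called, 2340 (12.2%) of them lower and 2831 higher. The 21 given here are those of the 95 listed loci that were chosen to be named. The interaction, the log2 response of the mutant less that of the wild type, was negative in 17 of the 21. In mitochondrial retrograde genes it was -0.98 for AOX1A, -2.51 for AOX1D and -2.07 for UGT74E2. In camalexin genes it was -1.83 for PAD3 and -2.21 for CYP71A12. In conjugation genes it was -2.53 for GSTU1 and -1.77 for UGT74F2, and in senescence genes -1.38 for WRKY6 and -1.63 for SRG1. In defence and hormone genes it was -2.99 for NATA1, -1.49 for PBS3, -2.61 for AT1G30700, -1.66 for RD20 and -0.71 for IAR3. The sugar transporter gene SWEET2 had -2.64, and the sulfur limitation markers BGLU30 and SULTR1;1 had -0.66 and -1.17. It was positive for RD22 (2.40), the carbonic anhydrase gene CA1 (2.80), VSP1 (1.69) and SULTR4;2 (0.65). All 21 were drawn from lists made with earlier results known. Groups of 3 libraries are too small for a search for single outlying values.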

How the results depend on the processing

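The thresholds chose 172 loci after scaling (155 of them among the 168 members), 132 with a pseudocount of 0.1 TPM (109), 170 with no filter (168), 81 with a pseudocount of 5 TPM (58) and 75 with a minimum of 5 TPM (75). With 1 library or 1 replicate number left out, and the filter kept as over all 12 libraries, they chose 158 to 184. For 61 named members, 99 of 732 recomputed genotype differences without sulfate moved by more than 1 SD, mostly under the other pseudocounts; their sign was fixed by the choice of members. Leaving out 1 library or 1 replicate number gave 566 to 2586 called loci for the genotypes with sulfate, 4661 to 8315 without sulfate, 2291 to 5259 for the interaction, 15091 to 16263 for Col-0 without against with sulfate and 14132 to 15753 for cdk8-1. The lowest counts for the genotypes and the interaction came from leaving out replicate number 2 throughout, and leaving out number 3 gave 775 for the genotypes with sulfate and 3015 for the interaction. The interaction of UGT74E2 turned from -2.07 to 0.25 in voom on recovered reads, the added alternative, and lost its call with a pseudocount of 0.1 TPM (-0.67). In voom those of PAD3 (-1.47), NATA1 (-2.50), BGLU30 (-1.15) and SULTR1;1 (-3.20) also lost their calls, as did that of VSP1 without replicate number 2 (1.40) and the genotype difference of BGLU30 with a pseudocount of 0.1 TPM (-0.51). The causes were not tested. Same-numbered libraries correlated between -0.004 and 0.305 in their deviations, so the numbers were not taken as pairs. A replicate block gave 3220 called loci for the genotypes with sulfate (2618 without it), 8377 without sulfate (7900) and 5718 for the interaction (5171). Depth limits the low members: 39 had under 30 reads over the 3 sulfate-free cdk8-1 libraries.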
